A study of Danio rerio with 6 samples.

Results

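Haemoglobin, the oxygen carrier of red blood cells, is a tetramer of alpha and beta globin chains, each holding a haem group. Zebrafish, like other vertebrates, use one set of chain genes in the embryo and another in the adult, and the alpha and beta genes lie intermingled in clusters. In primitive red cells of the embryo the chains are among the most abundant messages. Each chain needs haem, whose first step in red cells is catalysed by the enzyme encoded by alas2, and the finished cell carries a chloride and bicarbonate exchanger, band 3, encoded by slc4a1a.

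The genes described here are the embryonic alpha chain genes hbae1.1, hbae3 and hbae5, the embryonic beta chain genes hbbe1.1, hbbe1.2, hbbe1.3, hbbe2 and hbbe3, and alas2 and slc4a1a as a check on the amount of red cell RNA. The rule takes them by name and uses no measured value, but it was set with earlier results of these data known. Of the 10 genes, 8 had a row among the 15455 RefSeq transcripts of the count tables, comprising 2 alpha chain genes, 4 beta chain genes, alas2 and slc4a1a. The genes hbae5 and hbbe1.3 paired with no row and were not analysed here. All 8 passed the filter on low counts.

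RNA was taken from zebrafish larvae at 72 hpf (3 dpf) with the tail cut off for genotyping and the trunk and head kept. There were 3 wild-type pools and 3 pools of hnrnpul1/1l mutants (homozygous for CRISPR mutations in both hnrnpul1 and hnrnpul1l, which encode RNA-binding proteins), each pool made from 8 embryos. Unless it says otherwise, the study used the alleles hnrnpul1 Ca54 and hnrnpul1l Ca52, and the labels name none. The study describes these mutants as maternal and zygotic for hnrnpul1l and zygotic for hnrnpul1, and in one place takes the wild types from a cross of hnrnpul1l heterozygotes and in another calls them siblings, so that parentage and genotype cannot be told apart here. The tail, which was removed, carries blood vessels and the blood-forming tissue of this stage. The study's Methods call the 3 pools of a genotype biological replicates. Neither they nor the labels say whether the pools came from separate clutches, so the spread between pools may be partly technical.

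The estimated counts of a library summed to 52250779 to 61266049 for wild types and 40891309 to 62580215 for mutants, with the lowest in mutant replicate 2. Levels are given as CPM (counts divided by the library total and brought to a common size) after TMM scaling, which corrects the totals for composition. Transcript lengths were not used here, so levels are compared between libraries and not between genes. The targeted gene hnrnpul1 had 127, 122 and 118 CPM in wild types and 47.7, 45.7 and 22.1 CPM in mutants, every mutant pool below every wild-type pool (adjusted p = 0.328 from edgeR and 0.000154 from DESeq2). The second targeted gene, hnrnpul1l, was matched to no row.

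Of the 8 genes, 7 were higher on average in mutants, by differing amounts. The beta chain hbbe1.1 was 4.50-fold higher in mutants, and hbbe1.2 of the same cluster was 1.35-fold lower within the spread of the pools. The genes hbbe2, alas2 and slc4a1a were 1.94-fold, 1.89-fold and 1.46-fold higher. Both alpha chains were higher on average, but mutant replicate 2 lay below all wild types for each of them. Of the 13553 transcripts tested, edgeR's quasi-likelihood test called none at an adjusted p below 0.05 (0%), and limma-voom also called 0, while 1191 had an unadjusted p below 0.05 in edgeR and 210 were called by DESeq2. At that unadjusted threshold 3 of the 8 genes (hbbe1.1, hbbe2 and alas2) were higher and 0 lower, beside 4.18% of all transcripts higher and 4.61% lower. DESeq2 called 1 of the 8, hbbe1.1, beside 1.55% of the transcripts to which it gave an adjusted p. Because these are pools of trunks and heads with all their cell types, a different number of red cells and a different amount of RNA in each red cell cannot be told apart.

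**Figure D1:**
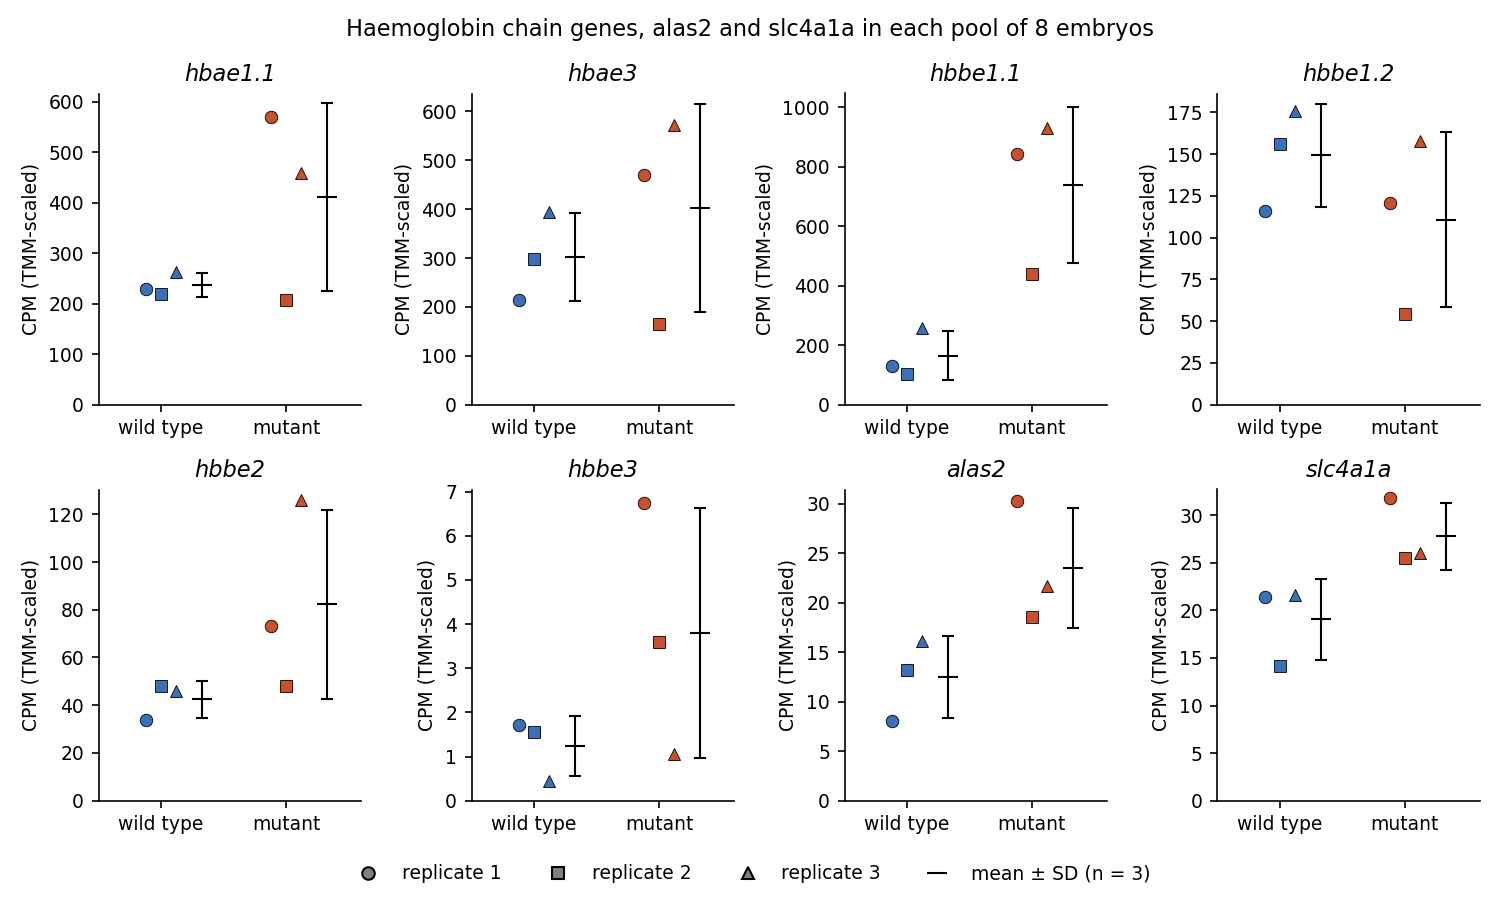
CPM after TMM scaling (vertical axes, each starting at 0) of the 8 genes in each wild-type (blue) and mutant (red) pool, with marker shape giving the replicate number and the bar the mean ± SD (n = 3). The mutant pools lie above every wild-type pool for hbbe1.1, alas2, slc4a1a and, by a hair, hbbe2 (48.1 against 48.0 CPM), while replicate 2 pulls the mutant mean down for both alpha chains and for hbbe1.2.

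Among the alpha chains, hbae1.1 (NM_182940) had 229, 219 and 264 CPM in wild types and 569, 207 and 458 CPM in mutants. Mutant replicates 1 and 3 were well above the wild types and replicate 2 was below them, so the groups overlapped. Mutants averaged 412 ± 186 CPM and wild types 237 ± 23.7 CPM (SD, n = 3 each). By edgeR hbae1.1 was 0.80 ± 0.35 log2 units higher (SE, adjusted p = 0.575).

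For hbae3 (NM_183066), the other alpha chain gene with a row, the levels were 214, 298 and 394 CPM in wild types and 470, 165 and 572 CPM in mutants. Again replicate 2 was the lowest of all 6 pools and the other mutants were the highest. The difference of 0.41 log2 units was smaller than its SE of 0.44 (edgeR, adjusted p = 0.880). Without mutant replicate 2 the log2 differences became 1.14 for hbae1.1 and 0.82 for hbae3, and both then had an unadjusted p below 0.05, although neither was called after adjustment.

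The beta chain gene hbbe1.1 (NM_198073) gave the widest separation of the 8. It had 130, 104 and 258 CPM in wild types and 842, 439 and 931 CPM in mutants, so that the lowest mutant pool was still above the highest wild type. Wild types averaged 164 ± 82.3 CPM and mutants 737 ± 262 CPM (SD, n = 3 each). In edgeR the gene was 2.17 ± 0.42 log2 units higher (SE), with an adjusted p of 0.350, against 0.239 in limma-voom and 5.36e-05 in DESeq2. Over the other edgeR settings with hbbe1.1 as a row of its own, the adjusted p ran from 0.232 (without mutant replicate 2) to 0.999 (without wild-type replicate 2). By unadjusted p it ranked 35 among all transcripts tested. Leaving out any one library kept the log2 difference between 1.93 and 2.66. An exact two-sided permutation test gave p = 0.1, which is the smallest that 3 pools against 3 can give.

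The gene next to it but one in the same cluster, hbbe1.2 (NM_001103130), was lower on average. Its levels were 116, 156 and 176 CPM in wild types and 120, 54.4 and 158 CPM in mutants, with overlapping groups and mutant replicate 2 lowest. The log2 difference was -0.43 with an SE of 0.38 (edgeR, adjusted p = 0.822). It stayed below 0 whichever library was left out, and came closest to 0 (-0.067) without mutant replicate 2.

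The beta chains hbbe2 and hbbe3 belong to a separate, smaller cluster. For hbbe2 (NM_212846) the pools had 33.7, 48.0 and 45.9 CPM in wild types and 73.0, 48.1 and 126 CPM in mutants, with mutant replicate 2 level with the highest wild type. It was 0.95 ± 0.35 log2 units higher (SE, edgeR, adjusted p = 0.528). The level of hbbe3 (NM_001015058) was low, at 1.71, 1.56 and 0.448 CPM in wild types and 6.74, 3.59 and 1.06 CPM in mutants, which stands for 30 to 401 counts in a library. Replicate 3 was the lowest pool of each genotype, the groups overlapped, and the log2 difference was 1.62 with an SE of 0.89 (edgeR, adjusted p = 0.659).

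The haem synthesis gene alas2 (NM_131682) had 8.02, 13.2 and 16.2 CPM in wild types and 30.3, 18.6 and 21.7 CPM in mutants, all mutant pools lying above all wild types. This was 0.92 ± 0.34 log2 units higher (SE, edgeR, adjusted p = 0.538). For slc4a1a (NM_198338) the pools had 21.4, 14.2 and 21.6 CPM in wild types and 31.8, 25.5 and 26.0 CPM in mutants, again without overlap, at 0.54 ± 0.26 log2 units higher (SE, edgeR, adjusted p = 0.601). An exact two-sided permutation test gave p = 0.1, the smallest possible, for hbbe1.1, hbbe2, alas2 and slc4a1a, and between 0.3 and 0.7 for the other 4 genes.

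**Figure D2:**
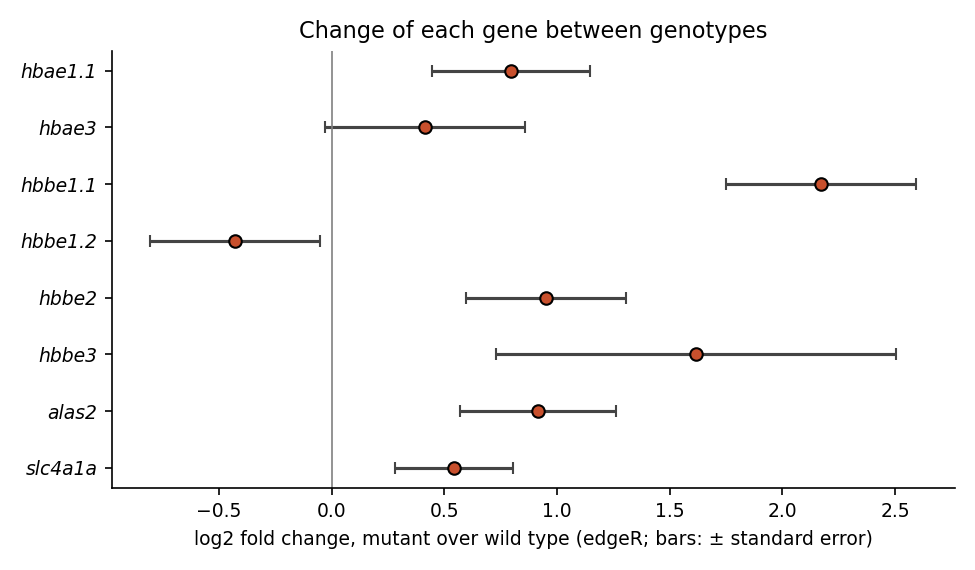
Log2 fold change of mutants over wild types for each of the 8 genes from edgeR (horizontal axis), with bars of ± 1 SE. The value of hbbe1.1 (2.17) stands furthest from 0 in relation to its error, that of hbbe1.2 (-0.43) is the only one below 0, and those of alas2 (0.92) and slc4a1a (0.54) lie in the range of the alpha chains and hbbe2.

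Every mutant pool lay above every wild-type pool for 4 of the 8 genes and below for 0, beside 7.71% of all tested transcripts above and 9.08% below. The count of 4 rested on the scaling. With libraries scaled by total counts, only hbbe1.1 stayed separated, 1 of the 8 beside 5.15% of all transcripts. In mutant replicate 2, alas2 and slc4a1a then lay just under the highest wild type, and hbbe2 lay under wild-type replicates 2 and 3. Against the highest wild type, the levels were 16.9 and 17.7 CPM for alas2, 23.3 and 23.7 CPM for slc4a1a and 43.9 and 50.2 CPM for hbbe2. Total-count scaling moved the median log2 fold change of all transcripts from -0.01 to -0.13. Over the 6 chains the median log2 fold change was 0.87, and over all 8 genes 0.86, with 7 of 8 above 0.

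The copies hbbe1.1 and hbbe1.2 are given together, since similar transcripts compete for reads when counts are estimated. The estimated counts of hbbe1.1 had a fractional part in 5 of 6 libraries and those of hbbe1.2 in 6 of 6, which an estimate takes when reads fit more than 1 transcript. The estimates of the other 6 genes were whole numbers in every library, within 1e-09 of a count at the digits the files hold. The share of hbbe1.1 in the summed counts of the pair was 52.9%, 39.9% and 59.4% in wild types and 87.5%, 89.0% and 85.5% in mutants. The mutant pools were thus close together and far above all wild types, also in replicate 2, which had the lowest hbae1.1, hbae3 and hbbe1.2 levels of the 6 pools. Wilson 95% intervals, which cover counting error only, were at most ± 0.816 percentage points. The share was not planned. It restates the levels of hbbe1.1 and hbbe1.2 given above and is no separate support for them.

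This difference between the copies does not depend on library scaling, as both levels come from the same library. Summed, the pair had 246, 260 and 434 CPM in wild types and 962, 493 and 1089 CPM in mutants, without overlap. Fitted as 1 row, a choice made after seeing the data, the pair was 1.44 ± 0.36 log2 units higher (SE, edgeR, adjusted p = 0.405). Under total-count scaling the pair overlapped, with 449.8 CPM in mutant replicate 2 and 474 CPM in wild-type replicate 3. The third copy, hbbe1.3, and the alpha copies hbae1.2 and hbae1.3 had no row, so reads from them could have been counted under a related gene or not at all. Whether sequence differences between the fish changed the assignment of reads to hbbe1.1 or hbbe1.2 was not tested.

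Added over the chain genes among the 8, the alpha chains had 443, 517 and 658 CPM in wild types and 1039, 371 and 1030 CPM in mutants, with mutant replicate 2 below all wild types. The beta chains together had 281, 310 and 480 CPM in wild types and 1042, 545 and 1216 CPM in mutants, every mutant pool above every wild type. The mutant mean was 1.51 times the wild-type mean for alpha and 2.62 times for beta. Under total-count scaling the beta sums overlapped, with 497 CPM in mutant replicate 2 and 524.5 CPM in wild-type replicate 3.

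Over the 2 alpha and 4 beta chain genes described here, the ratio of alpha to beta RNA within a library was lower in mutants. The alpha genes hbae1.2, hbae1.3 and hbae5 and the beta gene hbbe1.3 had no row and are not in the sums. The log2 ratio of summed alpha to summed beta was 0.66, 0.74 and 0.46 in wild types and -0.0038, -0.55 and -0.24 in mutants, so that alpha RNA made up 57.8% to 62.5% of the chain CPM in wild types and 40.5% to 49.9% in mutants. The genotypes did not overlap. The mean ratio was 0.62 ± 0.15 in wild types and -0.27 ± 0.28 in mutants (SD, n = 3 each), and the difference, with any one library left out, stayed between -1.01 and -0.74. This direction rested on hbbe1.1. With hbbe1.1 left out of the beta sum, the log2 ratio was 1.55, 1.33 and 1.57 in wild types and 2.38, 1.81 and 1.86 in mutants, separated in the opposite direction. This omission was not planned, and taking out the chain that rose most moves the difference upward by construction. The beta sum without hbbe1.1 was 193 ± 37.3 CPM in wild types and 197 ± 89.4 CPM in mutants (SD, n = 3 each).

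**Figure D3:**
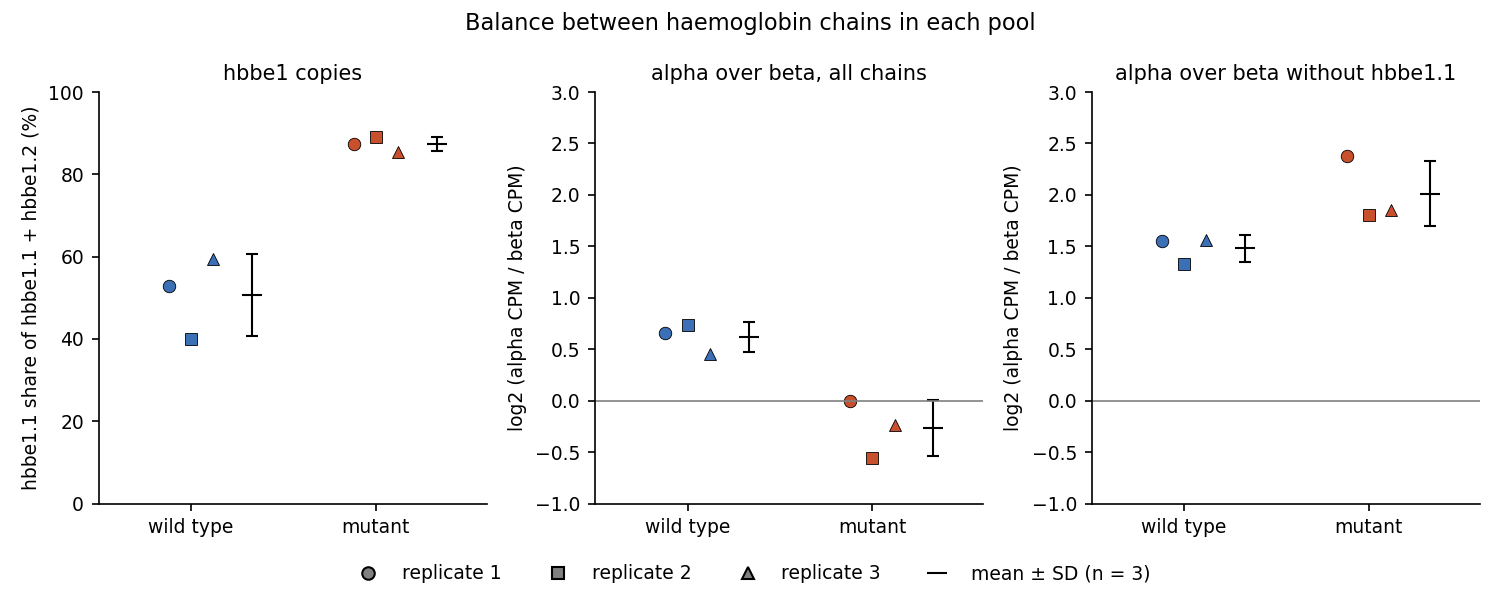
Left, the share of hbbe1.1 in the pair hbbe1.1 and hbbe1.2 in percent. Middle, the log2 ratio of summed alpha to summed beta CPM. Right, the same ratio with hbbe1.1 left out. Points are pools (blue wild type, red mutant, shape by replicate number) and bars the mean ± SD (n = 3). The genotypes are apart in each panel, and the ratio is lower in mutants with all chains (-0.27 against 0.62) but higher without hbbe1.1 (2.01 against 1.48).

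Relative to the red cell genes, most chains did not differ between genotypes beyond the spread of the pools. The log2 ratio of all chains to alas2 was 6.20 ± 0.27 in wild types and 6.14 ± 0.54 in mutants (SD, n = 3 each). To slc4a1a it was 5.55 ± 0.42 and 5.88 ± 0.65 (SD, n = 3 each). In mutant replicate 2 this ratio was 5.63 to alas2 and 5.17 to slc4a1a, the lowest mutant value in both cases. For the summed alpha chains relative to slc4a1a, the difference of mutants from wild types was -0.096 log2 units and its sign depended on the pools kept, with -0.38 without mutant replicate 3, 0.085 without wild-type replicate 2 and 0.34 without mutant replicate 2. For the summed beta chains relative to slc4a1a it was 0.79 log2 units, between 0.51 and 1.08 with any one library left out, and the groups overlapped, with 4.42 in mutant replicate 2 and 4.47 in wild-type replicate 3. Relative to alas2 the difference was -0.48 log2 units for alpha and 0.40 for beta, both with overlapping groups. It moved to -0.14 for alpha without mutant replicate 2 and to 0.13 for beta without mutant replicate 3.

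The gene hbbe1.1 was again set apart. Its log2 ratio to alas2 was 4.02, 2.98 and 3.99 in wild types and 4.79, 4.56 and 5.43 in mutants, and its ratio to slc4a1a was 2.60, 2.88 and 3.57 in wild types and 4.72, 4.10 and 5.16 in mutants. Every mutant pool was higher by both references. The ratio of hbbe1.2 to alas2 was 3.85, 3.57 and 3.44 in wild types and 1.99, 1.55 and 2.86 in mutants, lower in every mutant pool, while its ratio to slc4a1a overlapped. For hbae1.1, hbae3, hbbe2 and hbbe3 the genotypes overlapped by both references. The ratio of alas2 to slc4a1a itself was -0.65 ± 0.69 in wild types and -0.26 ± 0.20 in mutants (SD, n = 3 each), and overlapped.

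**Figure D4:**
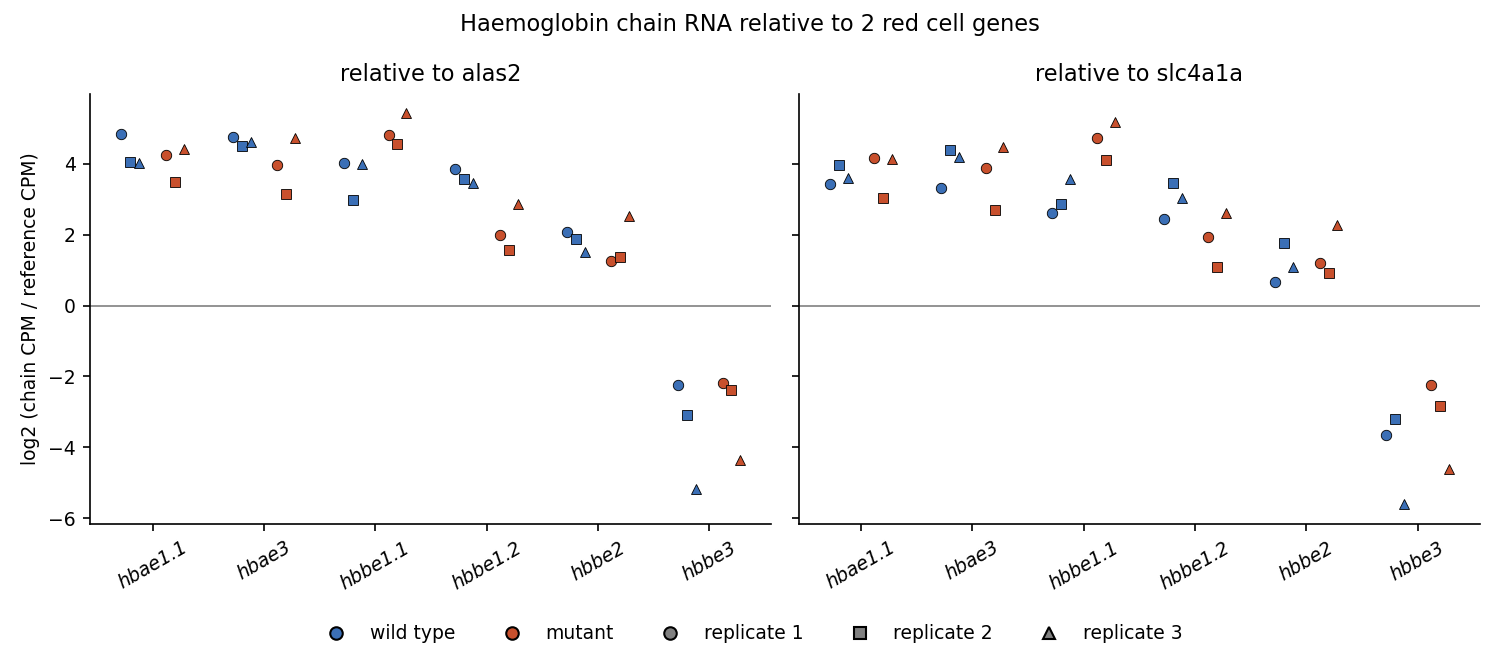
Log2 ratio of the CPM of each chain to that of alas2 (left) and slc4a1a (right) in the same library, with wild-type pools in blue, mutant pools in red and shape by replicate number. The mutants lie above the wild types for hbbe1.1 in both panels and below them for hbbe1.2 relative to alas2, and the genotypes overlap for the other chains.

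Chains of the same cluster did not all separate the genotypes. In the GRCz12tu gene table hbbe1.1, hbae1.1, hbbe1.2, hbae1.2, hbbe1.3, hbae1.3 and hbae3 follow each other in that order, after 6 genes that include the adult chains, and hbae4, hbbe3, hbbe2 and hbae5 form another cluster on a different chromosome. So hbbe1.1, higher in every mutant pool, and hbbe1.2, lower on average with overlapping pools, have hbae1.1 between them. The 8 protein-coding genes flanking the clusters were the nearest 2 with a row on each side, a choice made after the first results were seen. Each had overlapping pools. Over all tested transcripts, every mutant pool lay above every wild type for 7.71% and below for 9.08%. The edgeR adjusted p of the flanking genes was 0.832 or more, where edgeR called 0 of all transcripts. The nearest on one side of the larger cluster, nprl3, in which mammals carry enhancers of the alpha chains, averaged 26.1 ± 8.29 CPM in mutants and 20.8 ± 3.85 CPM in wild types (SD, n = 3 each). The difference was 0.33 ± 0.30 log2 units (SE, edgeR).

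The 6 other haemoglobin chains that were on the list and had a row had few counts. A further gene of the larger cluster, si:ch211-5k11.8, had a row but was on no list, and its level is not given here. The adult alpha gene hbaa2 had 0 counts in all 6 libraries. The adult genes hbaa1, hbba1, hbba2 and ba1l had 0 counts in every wild-type library and between 0 and 49 in the mutants, under the filter on low counts. The alpha gene hbae4 had 0.919 to 2.22 CPM in wild types and 2.47, 0 and 2.37 CPM in mutants, a difference of 0.11 ± 1.49 log2 units (SE). Among the 5 globins of a further list, ngb, the neuronal globin, was lower in every mutant pool. It had 32.0, 48.1 and 42.1 CPM in wild types and 21.0, 26.7 and 29.5 CPM in mutants (log2 difference -0.66 ± 0.25 SE, edgeR, adjusted p = 0.540). At an unadjusted p below 0.05, 0 of these 5 globins were higher and 1 (ngb) lower, beside 4.18% and 4.61% of all transcripts. The muscle globin mb had 324 to 600 CPM in wild types and 345, 95.4 and 734 CPM in mutants, so that mutant replicate 2 was low for this gene too.

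Of the other haem synthesis genes, 8 of 9 were tested, with a median log2 fold change of 0.10 beside -0.01 over all transcripts. At an unadjusted p below 0.05, 1 of the 8 was higher and 1 lower, beside 4.18% and 4.61% of all transcripts. The higher one was hmbsa, which encodes hydroxymethylbilane synthase, at 16.3, 8.83 and 16.2 CPM in wild types and 31.1, 28.8 and 35.5 CPM in mutants. All mutants, replicate 2 included, were above all wild types, at 1.21 ± 0.30 log2 units (SE), with an adjusted p of 0.406 in edgeR, 0.0383 in DESeq2 and up to 0.999 over the alternatives. The lower one was alas1, the form of the first enzyme used outside red cells, at 90.7, 117 and 90.8 CPM against 56.2, 41.4 and 80.2 CPM (log2 difference -0.75 ± 0.27 SE, edgeR, adjusted p = 0.519). The pair alas1 and alas2 thus differed in direction.

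For iron and haem transport, 17 of 18 genes with a row were tested. At an unadjusted p below 0.05 in edgeR, 0 were higher and 0 lower, beside 4.18% and 4.61% of all transcripts. The median log2 fold change of the 17 was -0.099. The ferritin gene fth1a, which encodes an iron store, differed by -0.099 ± 0.19 log2 units (SE) and fth1b by 0.032 ± 0.33.

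Of the red cell membrane and enzyme genes, 15 were tested. Their median log2 fold change was 0.33, with 8 above and 7 below 0, and 3 were higher and 0 lower at an unadjusted p below 0.05, beside 4.18% and 4.61% of all transcripts. The 3 were nt5c2l1, a cytosolic nucleotidase gene, prdx2, which encodes a peroxiredoxin that removes hydrogen peroxide, and epb41b, which encodes a protein of the membrane skeleton. In that order they were 1.14 ± 0.37, 0.55 ± 0.21 and 0.85 ± 0.37 log2 units higher (SE). Every mutant pool lay above every wild type for these 3 of the 15 and below for 1. Over all transcripts the shares were 7.71% and 9.08%. The level of prdx2, for example, was 428, 360 and 308 CPM in wild types and 504, 483 and 614 CPM in mutants. None passed after adjustment in edgeR. The gene bnip3lb, which encodes a mitochondrial protein for the clearance of organelles, lay below all wild types in every mutant pool, at 32.9, 27.9 and 33.1 CPM against 35.5, 39.4 and 46.4 CPM (log2 difference -0.37 ± 0.22 SE, edgeR, adjusted p = 0.692). The summed level of the 15 genes was 754 to 1018 CPM in wild types and 1039 to 1142 CPM in mutants, but this separation rested on the scaling and on prdx2. Under total-count scaling, computed after seeing the data, mutant replicate 1 (988 CPM) lay below wild-type replicate 1 (1035 CPM), and without prdx2 the TMM-scaled sums were 446 to 590.1 CPM in wild types and 525 to 659 CPM in mutants, overlapping. The part of red cell number in the chain values was not tested.

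Among 20 tested genes for erythroid transcription and signalling, the median log2 fold change was -0.0088, and 0 were higher and 2 lower at an unadjusted p below 0.05, beside 4.18% and 4.61% of all transcripts. These were jak2b, a Janus kinase gene, at -0.69 ± 0.23 log2 units (SE, edgeR, adjusted p = 0.474), and runx1, a transcription factor gene needed for definitive blood stem cells, at -0.98 ± 0.41 (edgeR, adjusted p = 0.557). For both genes the mutants lay below all wild types. For jak2a, also on the list, the pools overlapped, at -0.38 ± 0.30 log2 units (SE, edgeR, adjusted p = 0.786). Some genes of the list were near the floor, such as gata1a at 0.373 to 2.82 CPM, and others were not, such as tal1 at 52.8 to 101 CPM. The gene epor, with 0 to 13 counts in a library, was not tested. Of the 20 genes, every mutant pool lay above every wild type for 1 and below for 3, beside 7.71% and 9.08% of all transcripts.

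Other cells of the blood and vessels were measured by lists of their markers. Of 12 myeloid genes tested, 1 was higher and 0 lower at an unadjusted p below 0.05, beside 4.18% and 4.61% of all transcripts, and their summed level was 30.2 to 55.0 CPM in wild types and 37.8 to 87.4 CPM in mutants. The 1 was lyz, the lysozyme gene, at 1.59, 3.17 and 5.99 CPM in wild types and 17.1, 8.95 and 23.1 CPM in mutants, or 2.19 ± 0.58 log2 units higher (SE), with an adjusted p of 0.408 in edgeR, 0.0241 in DESeq2 and up to 0.999 over the alternatives. Mutant pools all lay above the wild types for 2 of the 12 (lyz and mpeg1.1) and below for 0. Over all transcripts these shares were 7.71% and 9.08%. The log2 difference was 1.33 ± 0.71 for mpeg1.1 and 0.081 ± 0.83 for the neutrophil peroxidase gene mpx (SE). Of the thrombocyte markers the defining gene itga2b had 0 counts in all libraries, mpl and itgb3b stayed at or below 25 counts, and gp1bb, a platelet glycoprotein gene that made up nearly all of the list's summed level, had 17.4, 22.5 and 29.8 CPM in wild types and 17.3, 15.04 and 22.3 CPM in mutants. For 15 endothelial genes the sum was 157 to 172 CPM in wild types and 155 to 186 CPM in mutants, with a median log2 fold change of -0.11. At an unadjusted p below 0.05, 1 was higher and 0 lower, beside 4.18% and 4.61% of all transcripts. The 1 was fli1, at 0.66 ± 0.29 log2 units (SE). Every mutant pool lay above every wild type for 1 of the 15 and below for 2, beside 7.71% and 9.08% of all transcripts. The part of these cells in the haemoglobin values was not tested.

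**Figure D5:**
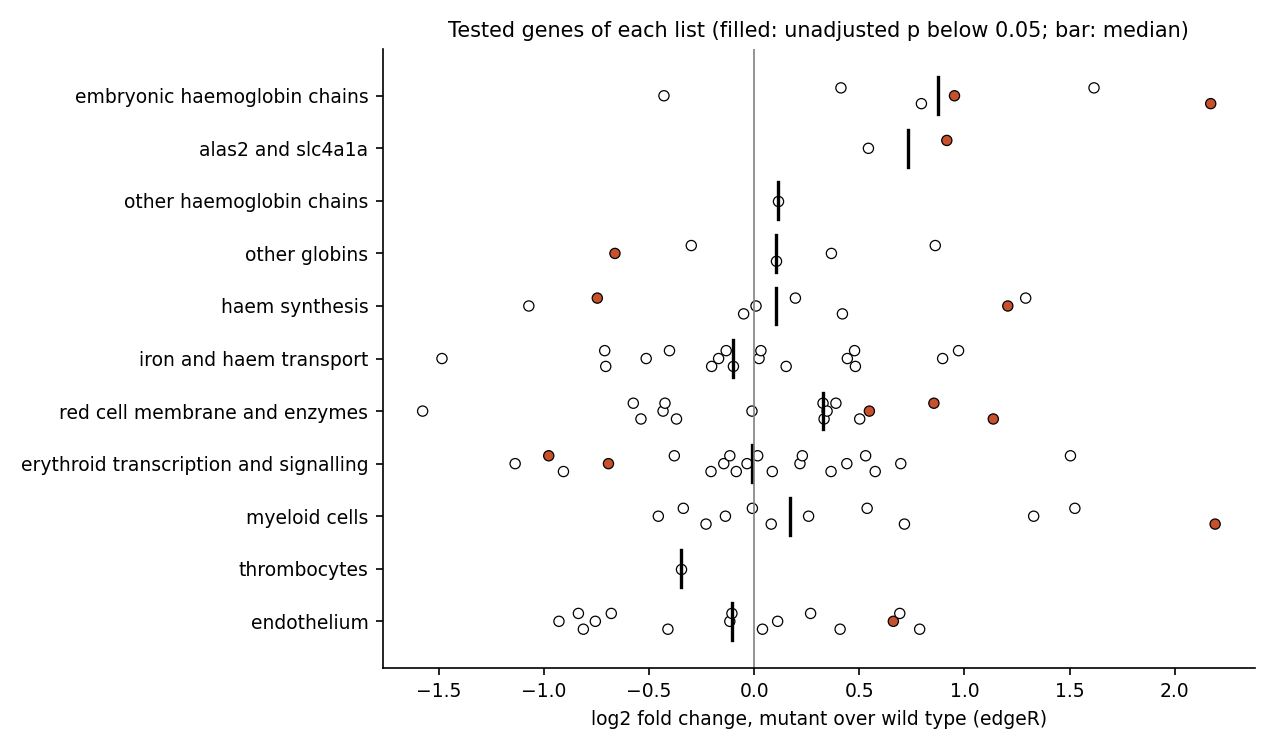
Log2 fold change of mutants over wild types from edgeR for every tested gene of each list (points, shifted vertically for legibility), filled where the unadjusted p is below 0.05, with a bar at the list's median. The embryonic chains have a median of 0.87 and the red cell membrane and enzyme genes one of 0.33, while iron and haem transport (-0.099) and erythroid transcription and signalling (-0.0088) lie near 0.

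The transcripts whose pattern over the 6 libraries was most like the mean pattern of the 8 genes came from outside the red cell lists. Among 12336 transcripts with a mean of at least 1 CPM, the highest Pearson correlations of log2 CPM, 0.979 to 0.994, were those of supt7l, borcs8, mad2l1, eef1b2, si:dkey-222f8.3, sft2d2a, mob1a and 1 transcript without a symbol (NM_001002366). These points share their libraries, so depth and genotype enter each of them, and the values are a description. Picked as the highest of 12336 over only 6 libraries, they are high by selection. The 8 genes were not all alike, with correlations between them from -0.62 (hbbe1.2 and hbbe3) to 0.87 (hbbe1.1 and slc4a1a), so their mean pattern is not that of each gene. The mitotic checkpoint gene mad2l1 had 20.1, 20.6 and 21.5 CPM in wild types and 46.6, 24.2 and 37.1 CPM in mutants, and eef1b2, which encodes an elongation factor subunit, had 908, 1026 and 970.5 CPM against 1772, 1047 and 1619 CPM. In both, mutant replicate 2 was the lowest of the mutants but above all wild types, whereas for the alpha chains it was below them. The mean pattern of the 8 genes was also lowest in replicate 2 among the mutants, so picking transcripts by likeness brings this order with it.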

How the data were processed

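Per the labels, polyadenylated RNA was used and libraries were directional. The study states paired-end reads. The authors deposited 1 file of estimated counts (expected counts) per library, for 15455 RefSeq transcripts, not scaled for depth or length. The submitters' processing notes name kallisto 0.42.4, bcl2fastq 2.20.0.422 and the danRer10 build without a role for each, and the RefSeq release is not given in the sources used here. Symbols came from a GRCz12tu RefSeq gene table, which matched 14740 transcripts. Where a gene had several transcripts, the most abundant was used.

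Counts were rounded to whole numbers (15.8% to 18.3% of values lay more than 1e-09 from a whole number) and analysed with edgeR 4.0.16 in R 4.3.3 (filterByExpr, TMM, quasi-likelihood test, no covariate), with Benjamini-Hochberg adjustment over all 13553 tested transcripts and a threshold of 0.05. The standard error is the log2 fold change divided by the square root of F. Log2 CPM used a prior count of 2. Alternatives were RLE factors, total-count scaling, DESeq2 1.42.0, limma-voom (limma 3.58.1), no filter, a filter at a mean of 5 CPM, transcripts added up by gene, a replicate block, and each library left out. Adding hbbe1.1 to hbbe1.2, and the red cell list sums by scaling and without prdx2, were chosen after seeing the data. The share of hbbe1.1 in the pair and the alpha to beta ratio without hbbe1.1 were not in the planned design. The design had assumed raw counts, and its test was kept after rounding. The fit was tested on simulated data with 4-fold changes.

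Both the rule for the 8 genes and the lists were set with earlier results of these data known. List names hbba1.1, hbba1.2, mfap4, fli1a, pecam1 and etv2 were matched as ba1l, hbba1, mfap4.1, fli1, pecam1a and etsrp. Named were all 8 genes, hnrnpul1, up to 3 genes per list and direction with an unadjusted p below 0.05 (otherwise the 2 most abundant), and the 8 most similar transcripts. Genes named beyond these (nprl3, si:ch211-5k11.8, hbaa1, hbaa2, hbba1, hbba2, ba1l, hbae4, mb, mpx, mpeg1.1, itga2b, mpl, itgb3b, bnip3lb, jak2a, gata1a, tal1, epor) are given as context.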

Additional observations from a re-analysis of the deposited data

How the results depend on the processing

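The direction of each of the 8 genes was kept under every alternative run, except that hbbe1.2 turned from -0.43 to 1.44 when its counts were added to those of hbbe1.1, by construction, and that hbbe3 has no value under the filter at a mean of 5 CPM. DESeq2 called 210 transcripts and 1 of the 8 genes (hbbe1.1), where edgeR called 0. Of the 8 genes, 3 were higher at an unadjusted p below 0.05, beside 566 of all 13553 tested transcripts (4.18%). Under total-count scaling 1 (hbbe1.1) was higher, beside 330 transcripts. With a library left out, the count ran from 1 (without wild-type replicate 1, beside 553 transcripts) to 5 (without mutant replicate 2, beside 822 transcripts). With a library left out, edgeR called between 0 and 1 transcripts. The share of transcripts at that p that were higher was 47.5%, and 24.1% under total-count scaling. Same-numbered libraries deviated from their group means with correlations of -0.091, 0.13 and 0.38, beside -0.37 to 0.23 for differently numbered ones. So few correlations cannot settle whether the numbers pair the pools. With a replicate block 0 transcripts were called. There 2 of the 8 genes (hbbe1.1 and hbbe2) were higher at an unadjusted p below 0.05, beside 657 transcripts. Depth was lowest for hbbe3, at 30 counts in wild-type replicate 3.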
